A study of Homo sapiens with 2 samples.

Results

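Heat shock proteins and their DNAJ partners were followed here through drug selection of an ovarian cancer cell line. Members were all non-control probes whose gene name on the array begins with HSP90, HSPA, HSPB, HSPD, HSPE, HSPH or DNAJ. These prefixes took in 125 of 41000 probes and 74 of 30238 gene names. A2780, a human ovarian carcinoma line, had been selected with rising drug doses into A2780CBN, at 22.2 µM carboplatin, and A2780CBNDXL, at 8.02 µM by its label, with carboplatin and docetaxel together. The study's text uses the latter figure as an inhibitory concentration and gives another terminal dose. Each resistant line was set against A2780CC, parental cells kept in culture beside it without drug, so both sides of every comparison share the A2780 background. Each line is 1 selected population rather than a set of clones, and the resistant lines were described as growing more slowly than the parent. For each line a single pool of RNA from 3 isolations went onto 4 two-colour arrays.

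Carboplatin forms DNA adducts and docetaxel stabilizes microtubules. HSP70 proteins bind unfolded polypeptides in cycles of ATP hydrolysis. J proteins, named DNAJA, DNAJB and DNAJC by their domains, bring clients to HSP70 and start hydrolysis, and HSP110 proteins and other exchange factors release the nucleotide. HSP90 matures kinases and receptors, HSPD1 with HSPE1 forms the folding chamber of the mitochondrial matrix, and small heat shock proteins hold unfolded clients without ATP. HSF1, the main heat shock factor, drives the inducible members through heat shock elements, while the chaperones of the endoplasmic reticulum follow the unfolded protein response.

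Sequence elements of these routes were searched for in the promoters, and only some of the chaperone genes held one. RefSeq windows (GRCh38.p14) of 250 bases before to 50 after a transcript start were found for 65 of the 74 genes, in 87 windows. A heat shock element of 3 units, GAANNTTCNNGAA on either strand, lay in 7 member windows (8.05%) and in 172 of 35116 windows of all genes (0.49%). The genes were DNAJA1, DNAJB6, HSP90AA1, HSP90AB1, HSPA6, HSPA8 and HSPD1. A shorter element of 2 units, GAANNTTC or TTCNNGAA, overlaps the longer one and lay in 25.3% of member windows and 13.5% of all windows. The endoplasmic reticulum stress element, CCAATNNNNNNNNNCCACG on either strand, lay in 2 member windows (2.3%), those of HSP90B1 and HSPA5, and in 0.0769% of all windows. The 250 bases upstream of 5 of these genes are shown because they hold the element of one route or the other, with matches of the 3-unit element or of the stress element in capitals. They are read 5′ to 3′ along the gene. HSPA6 lies on the plus strand at chr1:161524290-161524539, HSPA8 on the minus strand at chr11:123062137-123062386, and HSP90AA1, at its second start, on the minus strand at chr14:102087045-102087294. HSPA5 lies on the minus strand at chr9:125241344-125241593 and HSP90B1 on the plus strand at chr12:103930160-103930409.
HSPA6: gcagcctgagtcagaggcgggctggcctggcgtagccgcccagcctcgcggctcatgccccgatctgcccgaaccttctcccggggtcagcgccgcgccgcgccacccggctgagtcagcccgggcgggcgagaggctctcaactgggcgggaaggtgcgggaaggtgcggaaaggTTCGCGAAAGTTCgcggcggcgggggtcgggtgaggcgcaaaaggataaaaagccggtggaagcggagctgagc
HSPA8: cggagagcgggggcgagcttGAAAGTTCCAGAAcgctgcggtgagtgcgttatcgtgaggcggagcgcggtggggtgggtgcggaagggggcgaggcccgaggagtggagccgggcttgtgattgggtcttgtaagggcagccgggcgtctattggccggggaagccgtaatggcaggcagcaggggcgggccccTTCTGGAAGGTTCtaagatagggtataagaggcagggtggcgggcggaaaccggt
HSP90AA1: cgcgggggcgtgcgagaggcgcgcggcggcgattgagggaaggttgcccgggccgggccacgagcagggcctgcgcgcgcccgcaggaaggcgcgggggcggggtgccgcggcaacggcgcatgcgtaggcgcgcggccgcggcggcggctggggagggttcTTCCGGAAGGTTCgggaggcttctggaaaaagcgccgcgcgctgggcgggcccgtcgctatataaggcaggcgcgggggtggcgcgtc
HSPA5: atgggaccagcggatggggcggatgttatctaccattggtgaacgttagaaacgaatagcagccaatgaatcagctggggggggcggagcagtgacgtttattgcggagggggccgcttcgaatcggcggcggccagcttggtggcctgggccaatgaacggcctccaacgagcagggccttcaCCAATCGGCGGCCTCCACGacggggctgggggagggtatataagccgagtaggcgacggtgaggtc
HSP90B1: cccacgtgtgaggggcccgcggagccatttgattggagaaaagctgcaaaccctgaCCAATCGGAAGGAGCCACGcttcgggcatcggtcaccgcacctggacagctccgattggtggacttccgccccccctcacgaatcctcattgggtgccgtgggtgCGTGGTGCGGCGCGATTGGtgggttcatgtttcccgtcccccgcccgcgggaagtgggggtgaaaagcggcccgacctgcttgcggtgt
The first 3 sequences carry the heat shock element and the last 2 the stress element. A match is a run of letters and not a measured binding site.

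Between 59.8 and 67.5% of spots were well above background, the software's own mark, 0.380 to 2.32% were outliers, and the median signal was 2.28 to 3.52 times background. The coefficient of variation of the spike-in spots was 19.6% in green and 20.0% in red on array 1 of A2780CBNDXL and 3.56 to 4.87% elsewhere. The arrays of a line repeat 1 sample, so their SD covers labelling and hybridization only, and no test across cultures was possible. Arrays 1 and 2 lie on slide 1 and arrays 3 and 4 on slide 2, and arrays 1 and 3 carry the forward labelling. For member genes the labelling moved the log2 ratio more than the slide did. The median gap between forward and reverse labelling was 0.36 in A2780CBN and 0.28 in A2780CBNDXL, against 0.07 to 0.10 between slides within a labelling. The study's methods mention repeats with several batches of labelled RNA but do not say which batch went onto which slide. If both slides carried the same labelled RNA, the SD of 4 arrays rests on 2 labellings. The direction rests on the labels, in which the resistant line carries Cy5 on forward arrays. Of the markers listed for A2780 cells, KRT8, KRT18, VIM, PAX8 and EPCAM were above background, while WT1 and CDH1 were not above it on any array. Of 6 markers of other cell types, PTPRC, PECAM1 and ALB were not above background on any array, VWF was on some, CD3E was at log2 ratios of 0.10 and -0.02, and COL1A1 at 0.99 in A2780CBN and 2.04 in A2780CBNDXL. EPCAM was at 2.07 and 1.67, and KRT18 and VIM were at 1.05 and 1.08 in A2780CBN. The part of these shifts in the results below was not tested.

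Most chaperone genes could be measured. In A2780CBN 58 of the 74 genes reached the mark on every array in at least one of the channels, 4 lost an array to an outlier spot, 2 were above background on some arrays and 10 on none. In A2780CBNDXL the numbers were 55, 5, 3 and 11. The genes at background in both lines were DNAJB3, DNAJB7, DNAJB8, DNAJC6, HSPA2, HSPB2, HSPB3, HSPB7 and HSPB8. Several of these are known from testis, muscle or brain.

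A gene was called changed when it could be measured in this way and its log2 ratio, resistant line over control, kept one sign on the 4 arrays and averaged at least 1 in size, a 2-fold change. In A2780CBN 6 of 58 chaperone genes (10.3%) were changed, beside 12.6% of all 17951 genes. DNAJB4, DNAJC12 and HSPA12A were higher (5.17%, beside 8.0% of all genes) and DNAJC15, DNAJC22 and HSPH1 lower (5.17%, beside 4.55%). In A2780CBNDXL 8 of 55 (14.5%) were changed, beside 16.9% of all 17116 genes. DNAJA4, DNAJC12, DNAJC15, DNAJC22, HSPA12B and HSPA1L were higher (10.9%, beside 7.7%) and HSPA6 and HSPH1 lower (3.64%, beside 9.2%). With counts this small, no share is read as differing from that of all genes. At any size, 13 genes of A2780CBN (22.4%, beside 27.7%) were higher and 23 (39.7%, beside 33.1%) lower on all arrays. In A2780CBNDXL 18 (32.7%, beside 36.4%) were higher and 23 (41.8%, beside 33.1%) lower. The median log2 ratio of the chaperone genes was -0.09 and -0.07, and that of all genes -0.06 and 0.04.

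**Figure D1:**
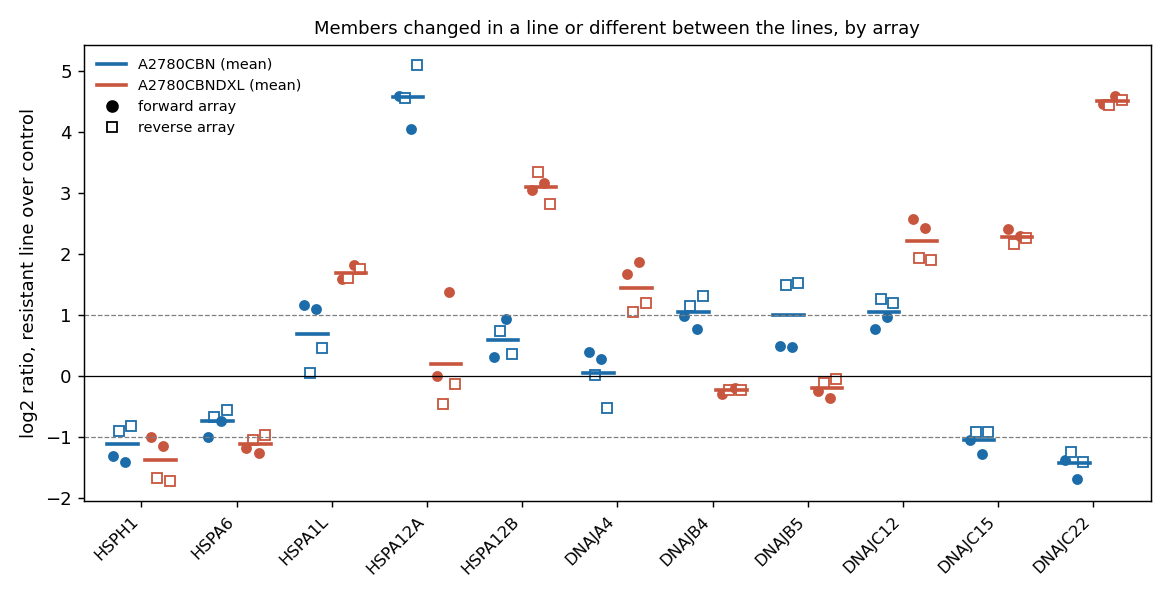
Log2 ratio of resistant line over control (y axis) for each chaperone gene changed in either line or different between the lines (x axis). Each array is 1 point and a bar marks the mean of each line. DNAJC15 and DNAJC22 lie below 0 on the A2780CBN arrays and above 0 on the A2780CBNDXL arrays, while all points of HSPH1 lie below 0.

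HSPH1, the HSP110 chaperone that acts as nucleotide exchange factor for HSP70, was lower in both lines. In RNA of whole cultures, fewer cells with a transcript and less of it per cell cannot be told apart. Its probe lies at chr13:30608796-30608855 on the minus strand of NCBI36. In A2780CBN its signal was 11525, 11438, 14257 and 15527 on arrays 1 to 4, against 28646, 21339, 38162 and 27636 in the control. The mean log2 ratio was -1.12 ± 0.29 (SD of 4 arrays). In A2780CBNDXL the signal was 10019, 10219, 15500 and 12303 against 20090, 32750, 34482 and 40412. The mean log2 ratio there was -1.39 ± 0.36. The resistant signal was below the control signal on every array of both lines, although the labelling moved the ratio, to -1.68 and -1.72 on the reverse arrays of A2780CBNDXL against -1.15 and less in size on the forward arrays.

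HSPA6, a form made mainly under stress, had log2 ratios of -1.01, -0.67, -0.74 and -0.57 in A2780CBN, with a mean of -0.75 under the limit, and -1.19, -1.05, -1.27 and -0.98 in A2780CBNDXL, with a mean of -1.12 ± 0.13. All 8 ratios were below 0, and the signals were dim, between 63.2 and 76.8 in the resistant lines and between 100.5 and 165.3 in the controls. Under another background correction, normexp with loess, HSPA6 was at -0.36 in A2780CBNDXL and was not called.

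For HSPA1A, the classic stress-inducible HSP70, the answer differed between its probes. The brightest probe, at chr6:31892924-31892983 of NCBI36, gave log2 ratios of 0.45, 0.24, 0.37 and 0.04 in A2780CBN and -0.17, 0.35, -0.09 and 0.44 in A2780CBNDXL. Their means were 0.28 and 0.13. A further probe, at chr6:31892373-31892432, gave 0.21 and 0.16. The probe farthest 3′ on this plus strand gene, at chr6:31893470-31893529, gave -3.35, -3.51, -3.47 and -3.42 in A2780CBN and -3.21, -3.47, -2.93 and -3.17 in A2780CBNDXL. Its signal was 21.3 to 33.6 in A2780CBN against 235.6 to 341.5 in the control, and 38.8 to 63.2 in A2780CBNDXL against 359.5 to 637.6. This probe was lower in the resistant line on all 8 arrays, with a mean of -3.20 ± 0.22 in A2780CBNDXL, while its neighbours did not pass the limit in any direction. In A2780CBN the resistant channel was well above background on 1 of 4 arrays, so the mean of -3.44 there sets the control against signals that were mostly at background. HSPA1A and HSPA1B are nearly identical in coding sequence and no probe is named for HSPA1B, so probes within the shared sequence may read both genes.

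**Figure D2:**
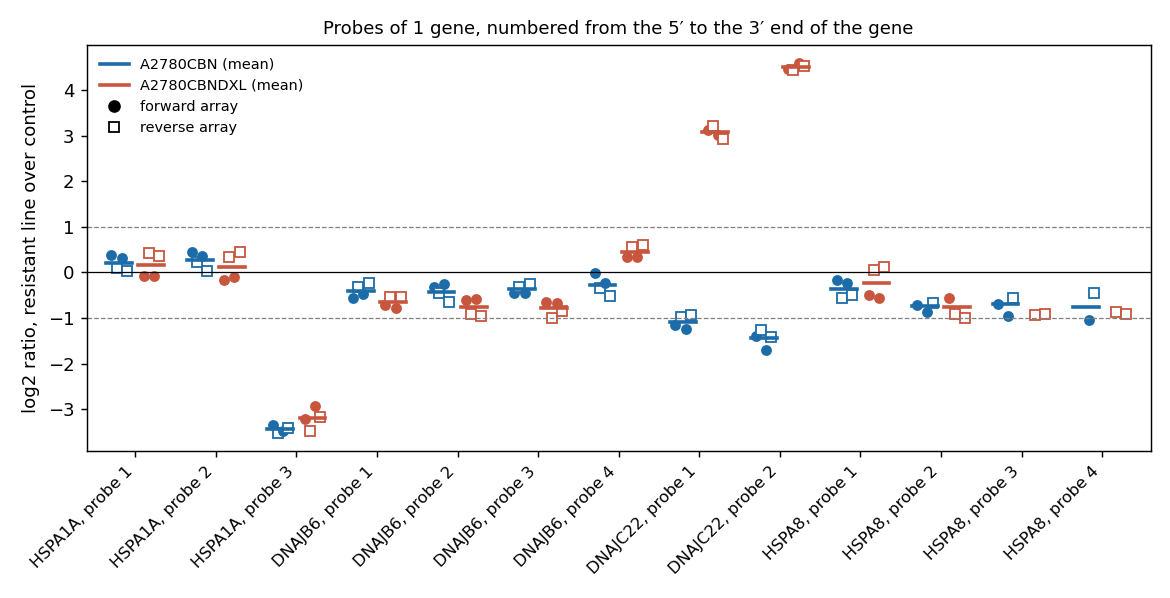
Log2 ratio of resistant line over control (y axis) for each probe of HSPA1A, DNAJB6, DNAJC22 and HSPA8 (x axis), as array points and means. The 3′ probe of HSPA1A lies near -3.44 and -3.20 while its other probes lie near 0, and both DNAJC22 probes agree in sign.

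HSPA1L, an HSP70 encoded beside HSPA1A and known from testis, had log2 ratios of 1.59, 1.61, 1.81 and 1.75 in A2780CBNDXL, with a mean of 1.69 ± 0.11. In A2780CBN they were 1.16, 0.04, 1.09 and 0.45, with a mean of 0.69 ± 0.54. The A2780CBNDXL arrays were all above those of A2780CBN. The signals were dim, 120.4 to 148.5 in A2780CBNDXL against 35.8 to 48.8 in its control. The mean of A2780CBNDXL was 0.41 under the other background correction and no longer called.

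HSPA12A and HSPA12B, distant HSP70 relatives with an unusual ATPase domain, were each above background in a different resistant line. HSPA12A gave signals of 134, 145, 109 and 167 in A2780CBN and 4.89 to 6.60 in the control, which was not above background on any array. A2780CBN was at least 6.14-fold higher, with the control held at the lowest signal that was above background. In A2780CBNDXL the probe was not above background in either channel. The other HSPA12A probe was not above background in either line. HSPA12B gave 226, 295, 264 and 276 in A2780CBNDXL against 27.2, 29.2, 29.4 and 39.0 in its control, which was above background on 3 of 4 arrays. The mean log2 ratio was 3.09 ± 0.22, and in A2780CBN neither channel was above background. Its control channel was itself 1.61 log2 units higher on the A2780CBNDXL arrays than on those of A2780CBN. Under the other background correction both genes were below the limit, at 0.54 and 0.86.

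Among the constitutive HSP70 forms, HSPA9 and the brightest HSPA8 probe had values below 0 that did not reach the limit. HSPA8, the abundant cytosolic HSP70, lost a spot to an outlier mark on array 2 of A2780CBN and had -0.70, -0.95 and -0.56 on the others. In A2780CBNDXL only the reverse arrays gave values, -0.93 and -0.91, and with the outlier spots kept the mean was -0.86. All remaining values of this probe were below 0. The HSPA8 probe with values on all arrays, a dimmer one, had means of -0.37 and -0.22 in the same order, and in A2780CBNDXL its reverse arrays were above 0, at 0.05 and 0.12. HSPA9, the HSP70 of mitochondria, was at -0.31 ± 0.11 in A2780CBN and -0.76 ± 0.10 in A2780CBNDXL, and lower on every array. HSPA5, the HSP70 of the endoplasmic reticulum, was at -0.15 ± 0.30 and, over 3 arrays, 0.01 ± 0.37, with both signs among the arrays. HSPA4, an HSP110 relative, was at -0.56 and -0.61, and HSPA14, found at the ribosome, at -0.73 and -0.64, each below 0 on all 8 arrays. A dimmer HSPA14 probe was at 0.06 and -0.04. Dimmer HSPA4 probes were at -0.63 and -0.07 and at -0.54 and -0.45. HSPA13 was at 0.41 in A2780CBN and -0.52 in A2780CBNDXL. Of the HSP70 and HSP110 genes that could be called, 1 of 11 was higher and 1 lower in A2780CBN, with a median of -0.15. In A2780CBNDXL 2 of 10 were higher and 2 lower, 7 were below 0 on all arrays, and the median was -0.57. Of all genes in A2780CBNDXL, 7.7% were higher and 9.2% lower at the limit, 33.1% were below 0 on all arrays, and the median was 0.04. In A2780CBN 8.0% of all genes were higher and 4.55% lower, and their median was -0.06.

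No HSP90 gene was called changed in either line. HSP90AA1, the inducible cytosolic form, was at -0.32 ± 0.14 in A2780CBN and -0.92 ± 0.30 in A2780CBNDXL, where the forward arrays gave -1.14 and -1.21 and the reverse arrays -0.63 and -0.69. All 4 of its probes were below 0 on average in both lines. One of them, not the brightest, passed the limit in A2780CBNDXL with a mean of -1.07 and arrays at -0.97, -1.10, -1.09 and -1.12. HSP90AB1, the constitutive form, was at 0.10 ± 0.50 and -0.14 ± 0.38, with forward and reverse arrays on opposite sides of 0 in both lines. HSP90B1, the form of the endoplasmic reticulum, was at -0.33 over 3 arrays of A2780CBN and at -0.45 ± 0.08 in A2780CBNDXL, where all arrays were below 0. HSP90AB6P, a pseudogene, was at -0.11 in A2780CBN and above background on some arrays of A2780CBNDXL.

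No gene of the mitochondrial chaperonin was called changed, though every value without an outlier mark was below 0. HSPD1, also known as HSP60, gave -1.03, -0.83 and -0.52 on 3 arrays of A2780CBN and -1.60, -1.16 and -1.61 on 3 arrays of A2780CBNDXL. In A2780CBNDXL its signal was 55136, 109931 and 83553 against 166957, 246231 and 254231 in the control, a mean log2 ratio of -1.38 ± 0.25. The outlier mark on array 1 kept it from a call, and with the outlier spots kept the mean was -1.39 and the gene was called. A dimmer HSPD1 probe gave -0.38, -0.61, -0.39 and -0.75 in A2780CBN and -1.09, -0.27, -0.98 and -0.41 in A2780CBNDXL. HSPE1, or HSP10, the lid of the chamber, gave -0.93, -0.64, -0.85 and -0.69 in A2780CBN. On the reverse arrays of A2780CBNDXL it gave -1.68 and -1.67, the forward spots being marked as outliers, and with these spots kept the mean was -1.29 and the gene was called. Of the mitochondrial list (DNAJA3, DNAJC15, DNAJC19, HSPA9, HSPD1 and HSPE1), all 5 that could be called in A2780CBN were below 0 on every array, as were 33.1% of all genes, and 1 alone, DNAJC15, passed the limit. Their median was -0.52, beside -0.06 for all genes. In A2780CBNDXL 2 of 3 were below 0 on every array and DNAJC15 was above it.

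**Figure D3:**
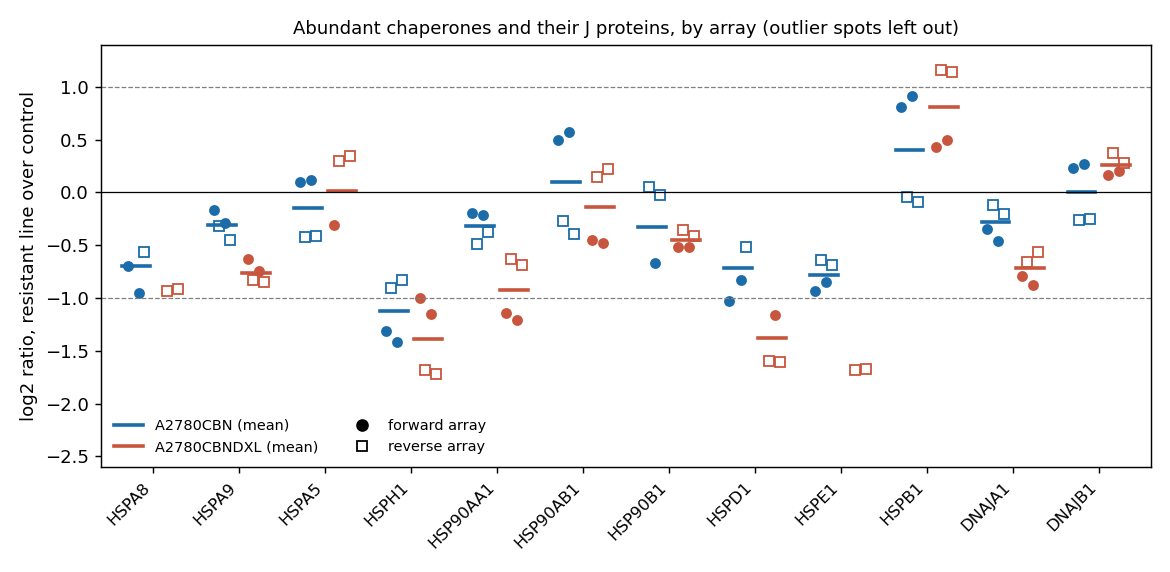
Log2 ratio of resistant line over control (y axis) for abundant chaperones and J proteins (x axis), with filled circles for forward arrays, open squares for reverse arrays and a bar for the mean where it can be formed without outlier spots. HSPD1, HSPE1, HSPH1 and HSPA8 lie below 0 in both lines, and the forward and reverse arrays of HSP90AB1 lie on opposite sides of 0.

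Among small heat shock proteins, HSPB1, or HSP27, was at 0.40 ± 0.54 in A2780CBN, with 0.81 and 0.91 on forward and -0.04 and -0.09 on reverse arrays. In A2780CBNDXL it gave 0.43, 1.16, 0.50 and 1.14, all above 0, with a mean of 0.81 ± 0.40. Its other 2 probes gave forward and reverse values that differed likewise. HSPB6 was at 0.03 and 0.09 and HSPB11, now known as the ciliary protein IFT25, at -0.30 and -0.32. HSPB9 was at -0.17 and 0.56, and its 2 probes differed in sign in A2780CBNDXL, at 0.56 and -0.78. None of the 4 small heat shock proteins that could be called passed the limit in either line, and the remaining 4 were at background.

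The DNAJA genes, the J proteins most like bacterial DnaJ, held 1 changed gene. DNAJA4 gave signals of 103.8, 71.8, 89.8 and 69.0 in A2780CBNDXL against 32.6, 35.0, 24.6 and 30.2 in its control, log2 ratios of 1.67, 1.04, 1.87 and 1.19 with a mean of 1.44 ± 0.39. In A2780CBN the ratios were 0.39, 0.01, 0.27 and -0.53, all below those of A2780CBNDXL. The control was above background on 3 of 4 arrays. Its other 2 probes were not above background on any array, and normexp put the A2780CBNDXL mean at 0.26. DNAJA1, the main cytosolic partner of HSPA8, was at -0.28 ± 0.15 and -0.72 ± 0.14, and below 0 on all 8 arrays. DNAJA2 was at -0.32 and -0.23, and DNAJA3, the mitochondrial form, at -0.52 and, over 3 arrays, -0.48.

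Of the DNAJB genes, most of which partner HSP70 in the cytosol and some in the endoplasmic reticulum, DNAJB4 was the 1 changed in A2780CBN. Its log2 ratios were 0.98, 1.15, 0.76 and 1.30, with a mean of 1.05 ± 0.23, and its other probe had a mean of 1.17. In A2780CBNDXL they were -0.30, -0.24, -0.20 and -0.24. DNAJB5, its near relative, gave 0.49, 1.48, 0.47 and 1.52 in A2780CBN, with a mean of 0.99 just under the limit, and -0.25, -0.12, -0.37 and -0.06 in A2780CBNDXL. For both genes the lines did not overlap and A2780CBN was the higher. Their controls differed too, the control channel being 0.49 log2 units higher for DNAJB4 and 0.72 higher for DNAJB5 on the A2780CBNDXL arrays. DNAJB1, the stress-inducible HSP40, was at 0.00 ± 0.29 in A2780CBN and 0.26 ± 0.09 in A2780CBNDXL. DNAJB2, which delivers clients to the proteasome, was at 0.35 and 0.83, with a dimmer probe at -0.09 and 1.07. DNAJB6, a suppressor of protein aggregation, was at -0.36 and -0.78. One of its 4 probes, named for another transcript, was at 0.46 in A2780CBNDXL while the other 3 were below 0.

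The DNAJC genes are a mixed family that ties HSP70 to particular tasks. DNAJC22, a homologue of the fly endocytosis protein Wurst, gave signals of 101, 104, 85.2 and 92.4 in A2780CBN against 264, 248, 276 and 247 in its control. In A2780CBNDXL it gave 3931, 4122, 4361 and 4103 against 179.7, 189.5, 181.2 and 178.4. The log2 ratio was -1.44 ± 0.19 in A2780CBN and 4.50 ± 0.07 in A2780CBNDXL, so the lines moved in opposite directions on every array. A second DNAJC22 probe gave -1.08 ± 0.14 and 3.07 ± 0.13. Its control channel differed between the lines by -0.59 log2 units after scaling, lower on the A2780CBNDXL arrays. The probes lie at chr12:48031617-48031676 and chr12:48029547-48029606 of NCBI36.

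DNAJC15, a J protein of the inner mitochondrial membrane also called methylation-controlled J protein, showed the same opposition. Its signals in A2780CBN were 201, 179, 204 and 238 against 417, 341, 498 and 455. In A2780CBNDXL they were 1933, 1887, 2483 and 2390 against 363.8, 421.2, 505.9 and 498.2. The log2 ratio was -1.05 ± 0.17 and 2.28 ± 0.10, and the controls of the lines lay within 0.03 log2 units of each other after scaling. The coordinates of its single probe, chr13:42550818-42557956 of NCBI36, cover more than a probe's length and so an intron. With normexp and loess the A2780CBN means of DNAJC15 and DNAJC22 were -0.49 and -0.45, below 0 but no longer called, and those of A2780CBNDXL 1.72 and 3.28.

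DNAJC12, which binds the aromatic amino acid hydroxylases, was higher in both lines. Its log2 ratios were 0.76, 1.26, 0.97 and 1.19 in A2780CBN, a mean of 1.04 ± 0.23. In A2780CBNDXL they were 2.57, 1.93, 2.43 and 1.90, a mean of 2.21 ± 0.34. The arrays of the lines did not overlap, and A2780CBNDXL was the higher. Its control channel was 0.50 log2 units higher on the A2780CBNDXL arrays. Signals were 697 to 794 in A2780CBN against 330.5 to 453 in the control, and 2081 to 2991 in A2780CBNDXL against 350.1 to 753.

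The remaining DNAJC genes stayed under the limit. DNAJC25 was at -0.88 and -0.46, DNAJC2, which binds the ribosome, at -0.63 and -0.59, and DNAJC4 at 0.56 and 0.75. DNAJC30 was at 0.08 and 0.53, with a dimmer probe at -0.88 in A2780CBN, and DNAJC21 was at -0.21 and -0.51, but its other 2 probes were at 0.45 and 0.61 in A2780CBNDXL, above 0 on all arrays. Of the 24 DNAJC genes that could be called in each line, 1 was higher and 2 lower in A2780CBN, with a median of -0.07. In A2780CBNDXL 3 of the 24 were higher and 0 lower, with a median of 0.04. Of all genes, 8.0% were higher and 4.55% lower in A2780CBN, and 7.7% and 9.2% in A2780CBNDXL. The medians of all genes were -0.06 and 0.04.

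**Figure D4:**
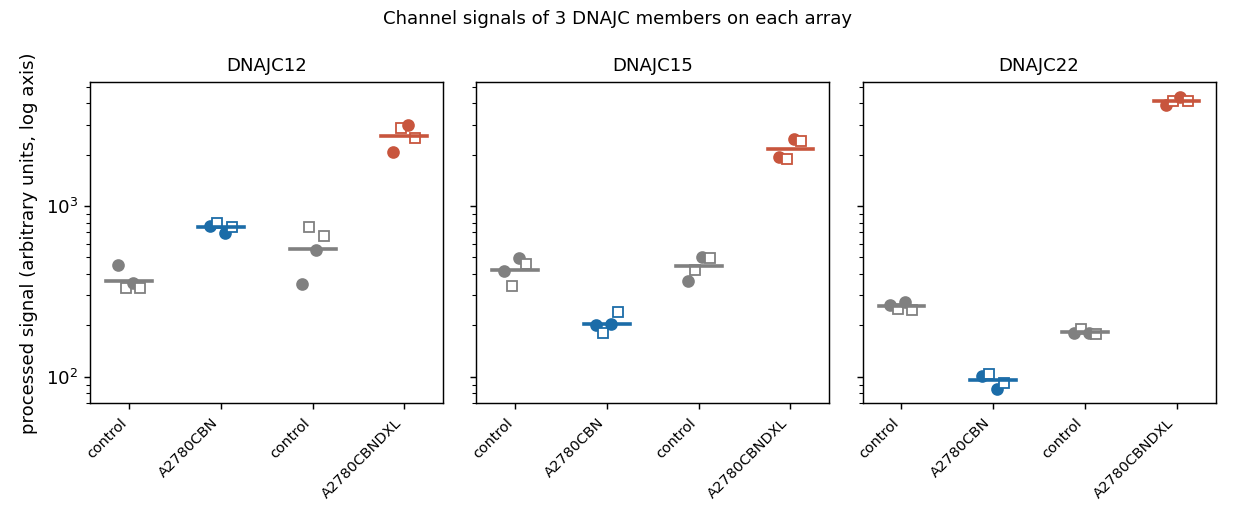
Signal on a log axis (y axis, Agilent processed intensity) of the resistant line and of its control on each array (x axis) for DNAJC12, DNAJC15 and DNAJC22. The A2780CBNDXL signals of DNAJC22 lie between 3931 and 4361 and those of its control between 178.4 and 189.5, while A2780CBN lies below its control.

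Set side by side, 7 of the 52 chaperone genes that could be called in both lines (13.5%) had log2 ratios that differed by at least 1 between the lines with no overlap of arrays, beside 16.4% of all 16131 genes. DNAJA4, DNAJC12, DNAJC15, DNAJC22 and HSPA1L were the higher in A2780CBNDXL (9.62%, beside 5.95% of all genes), and DNAJB4 and DNAJB5 the lower (3.85%, beside 10.4%). The difference was 5.94 for DNAJC22, 3.33 for DNAJC15, 1.41 for DNAJA4, 1.16 for DNAJC12 and 1.00 for HSPA1L, and -1.29 for DNAJB4 and -1.19 for DNAJB5. The other 45 genes, HSPH1 and HSPA6 among them, differed by less or overlapped. Both controls are named A2780CC, and by the study's methods each resistant line had a co-cultured control of its own.

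**Figure D5:**
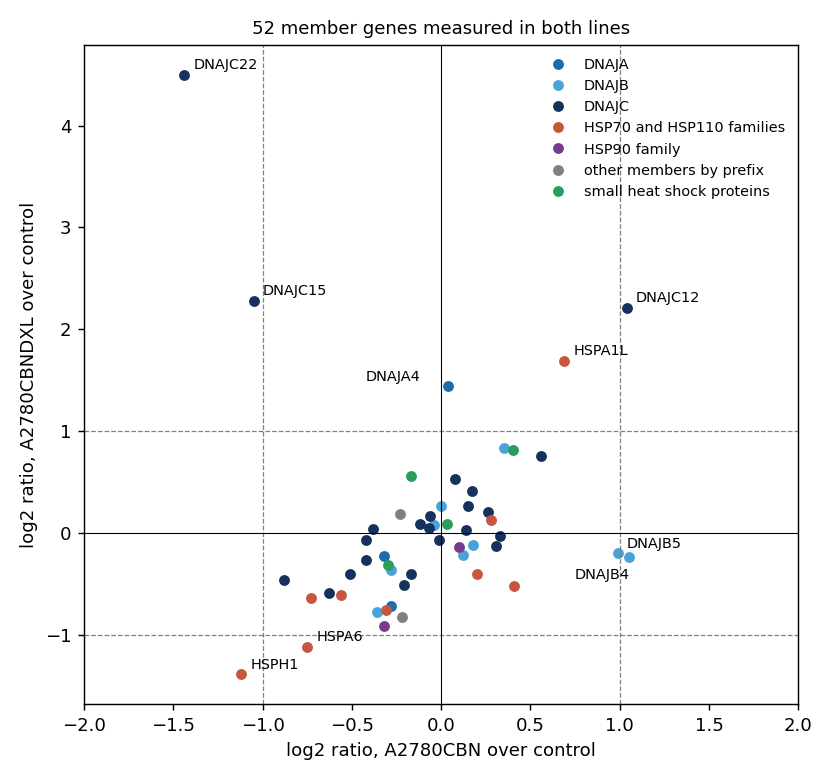
Mean log2 ratio over control in A2780CBNDXL (y axis) against that in A2780CBN (x axis) for the chaperone genes that could be called in both lines, with lines at the 2-fold limit. DNAJC22 and DNAJC15 stand apart at 4.50 and 2.28 on the y axis, and most genes lie within 1 of 0 on both axes.

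By pathway, the list of 13 genes known to follow HSF1 had 11 that could be called in A2780CBN, with DNAJB4 higher, HSPH1 lower and a median of 0.00, where that of all genes was -0.06. With HSPA8 and HSPD1, which lost an array to outlier spots, the median over the 13 was -0.28. In A2780CBNDXL 10 could be called, HSPA6 and HSPH1 were lower, none was higher, and the median was -0.32, where that of all genes was 0.04. HSPA8, HSPD1 and HSPE1 are outside the count in A2780CBNDXL because of outlier spots. With HSPD1, which has a mean without its outlier spot, the median was -0.41. HSPA1A counts in this list by its brightest probe, at 0.28 in A2780CBN and 0.13 in A2780CBNDXL. Its 3′ probe was at -3.44 and -3.20, so its place in the list depends on the probe. Of all genes, 8.0% were higher and 4.55% lower in A2780CBN, and 7.7% and 9.2% in A2780CBNDXL. The 7 genes whose promoters hold the heat shock element lay between -0.75 and 0.10 in A2780CBN, and in A2780CBNDXL between -1.38 and -0.14, with HSPA6 called. The chaperones of the endoplasmic reticulum (HSPA5, HSP90B1, DNAJB9, DNAJB11, DNAJC1, DNAJC3 and DNAJC10) held no called gene in either line, with medians of -0.02 and -0.29 over the 6 that could be called. DNAJB9, an early target of the unfolded protein response, was at 0.12 and -0.22.

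Beyond the prefixes, HSF2, a heat shock factor that pairs with HSF1, had log2 ratios of 1.96, 2.37, 1.78 and 2.29 in A2780CBN, a mean of 2.10, and -0.82, -0.97, -0.83 and -0.96 in A2780CBNDXL, a mean of -0.90 under the limit. It was 1 of 3 heat shock factors listed. HSF1 was at -0.27 in A2780CBN and kept values on 2 arrays only in A2780CBNDXL. HSF4 was at 0.30 and 0.37, and neither HSF1 nor HSF4 was called. A list of 24 genes, mostly co-chaperones of HSP70 and HSP90, also held the chaperones TRAP1, HYOU1, CRYAB and SERPINH1. Of this list, none of 24 passed the limit in A2780CBN and 2 of 21 in A2780CBNDXL. These were CHORDC1 and PPID, both partners of HSP90, each at -1.31. In the cytosolic chaperonin TRiC, CCT2 was lower in A2780CBNDXL, at -1.02, and CCT6B, a subunit known from testis, higher, with array values of 1.29, 0.74, 1.34 and 1.01, among 5 that could be called, and 0 of 6 were changed in A2780CBN. The CCT6B signals in A2780CBNDXL were dim, with a mean of 90.4 against 42.4 in the control, which was above background on 3 of 4 arrays. No prefoldin gene, of 6 and 5, was changed. Of all genes, 12.6% were changed in A2780CBN and 16.9% in A2780CBNDXL.

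Some calls depend on single steps. Against the control channel of the A2780CBNDXL arrays, A2780CBN had DNAJB4 at 0.56, DNAJC12 at 0.54 and DNAJC22 at -0.85, which ended these 3 calls, while HSPH1 at -1.06 and DNAJC15 at -1.02 stayed past it, as did HSPA12A, whose control is at background there too. Against the control channel of the A2780CBN arrays, A2780CBNDXL had 9 calls in place of 8. HSPA6, at -0.88, was lost, and HSP90AA1, at -1.20, and HSPB1, at 1.06, were added. With a signal above background asked for in both channels, HSPA12A was no longer called in A2780CBN, nor HSPA12B and DNAJA4 in A2780CBNDXL, which left 5 and 6 calls. Leaving out 1 array put DNAJB4 (array 1) and DNAJC12 (array 3) of A2780CBN at 0.99 and DNAJC15 (array 3) at -0.99. The filter on dye and slide terms that the study's methods apply after a 3-way ANOVA left DNAJC12, DNAJC22 and HSPA12A in A2780CBN, and DNAJC12, DNAJC22, HSPA12B, HSPA1L and HSPA6 in A2780CBNDXL. HSPH1, DNAJC15, DNAJB4 and DNAJA4 were removed by it.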

How the data were processed

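The files of 8 two-colour arrays were used, 4 for each of A2780CBN and A2780CBNDXL. The authors deposited Agilent Feature Extraction output (10.7.1.1 on slide 1, 10.7.3.1 on slide 2), in which the processed intensity of each channel is background-subtracted and dye-normalized. The deposited raw and background-subtracted intensities served alternatives only. The A2780DXL arrays were not analysed here. Outlier spots were left out, spots of a probe averaged, and log2 ratios taken within each array. The authors' labels list the same dyes for both labellings of a line, against the names of the reverse arrays, which were turned as named. Turned forward and reverse ratios correlated at 0.58 to 0.61 in A2780CBN and at 0.73 to 0.74 in A2780CBNDXL. Ratios were averaged within, then over, the labelling directions, and each gene was represented by its brightest probe over the 8 arrays. The call rule, 2-fold with one sign on 4 arrays and signal above background, has no p-value. The number of arrays limits the precision. Channels were scaled by Aquantile (limma 3.58.1, R 4.3.3) for lower bounds and for comparisons between controls. Alternatives were normexp with an offset of 50 and loess, background-subtracted signals, 1 slide, the mean over probes, other filters and fold limits, the 3-way ANOVA of the study's methods, limma, the other line's control, outlier spots kept, and leaving out each array. Named genes were those changed in a line or between lines and 14 chaperones listed with the rule. Members, lists and rules were chosen with earlier results of these data known. Scripts ran in Python 3.11.15 and were tested on simulated data.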

Additional observations from a re-analysis of the deposited data

Results flagged for a closer look

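Among the chaperone genes, DNAJC22 and DNAJC15 moved in opposite directions in the resistant lines on every array. The log2 ratio of A2780CBNDXL minus that of A2780CBN was 5.94 for DNAJC22 and 3.33 for DNAJC15. Each line is 1 sample, so these differences between the lines were not tested.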

How the results depend on the processing

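No paired analysis was possible because each line is 1 sample. No called value changed sign under any alternative tried. Of the values of single genes, pooled over settings, 469 moved by less than the spread of arrays and 39 by more. The moves were not spread evenly over the settings. With the other line's control 17 values moved by more and 19 by less, and with normexp and loess 15 by more and 29 by less. The 6 changed chaperone genes of A2780CBN became 1 with normexp and loess (HSPH1), 13 at 1.5-fold, 1 at 3-fold, 3 with the 3-way ANOVA and its filter on dye and slide, and 3 with the other line's control, and were 4 to 6 with 1 array left out. The 8 of A2780CBNDXL became 4, 19, 5 and 5 with the first 4 of these settings, and 8 to 9 with 1 array left out, 9 without array 1, HSPD1 then being called. Without the filter, ANOVA and limma gave 6 and 8. The 7 genes that differ between the lines became 3 with normexp, 11 with no filter on dim probes, 12 at 1.5-fold and 2 at 3-fold, and 6 to 8 with 1 array left out. The median of A2780CBN, -0.09, was -0.03 with normexp, -0.18 with the mean over probes, -0.02 with no filter on dim probes and -0.04 with the other control (-0.13 to -0.06 with 1 array left out). The median of A2780CBNDXL, -0.07, was -0.13 with background-subtracted signals, -0.03 on slide 1, -0.13 on slide 2, -0.12 above background in both channels and -0.13 with outlier spots kept, an alternative chosen after seeing the data (-0.14 to -0.05 with 1 array left out). Over all genes, the counts of 2253 and 2893 became 604 and 1172 with normexp, 4860 and 5699 at 1.5-fold, 1121 and 1467 at 3-fold, and 1164 in A2780CBN with the ANOVA filter. The normexp setting adds an offset of 50 to each signal, which shrinks the ratios of dim probes such as HSPA12A and HSPA1L by construction. The cause of the other moves was not tested.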
